A study of Mus musculus with 6 samples.

Results

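The genes described here encode Golgi enzymes that add galactose, sialic acid, fucose, N-acetylgalactosamine or N-acetylglucosamine to glycoproteins and glycolipids. They were taken by name from the annotation of an Affymetrix mouse array. A gene belonged if a probe set carried its symbol alone and that symbol was B4galt, B3galt, B3gnt, St3gal, St6gal, St6galnac, St8sia, Fut or Galnt followed by a number. This gave 64 of the 18193 genes measured, and 1 further gene of that naming pattern in the RefSeq table, Galnt17, was not analysed here. For each gene the values are those of its brightest probe set, by the mean of the 6 arrays. All values are log2 signals after quantile normalization, which makes the arrays share 1 distribution of values.

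The cells were 344SQ, a line grown from a subcutaneous tumour of 1 mouse that carried a K-rasLA1 allele and a p53R172H∆g allele, each over a wild-type copy, so both groups share these mutations. Control cells were transduced with a lentiviral control vector, and miR-200 cells with a lentivirus for the miR-200b-200a-429 cluster. In both cases GFP-positive pools were kept under puromycin. RNA came from 3 cultures of each kind of cell, called A, B and C, with 1 array per culture. Whether the cultures of a group were transduced separately is not stated, so p-values measure the spread between cultures, and a lasting difference between the selected pools cannot be told apart from an effect of the microRNAs.

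Glycans are built by a relay of such enzymes, each of which recognises the sugar that the one before it added. Galnt enzymes start mucin-type O-glycans by placing N-acetylgalactosamine on serine or threonine. B4galt and B3gnt enzymes alternate to build the lactosamine chains of glycoproteins and glycolipids, B3galt enzymes add galactose in another linkage, and sialyl- and fucosyltransferases cap or decorate the ends. In carcinomas, changes in these caps are well known as tumour antigens and as ligands of selectins. The microRNAs of the miR-200 family lower transcripts that pair with their seed, bases 2 to 8, and are best known for holding down the Zeb transcription factors.

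The 3 mature microRNAs of the cluster, from RefSeq (GRCm38.p6), are shown because they define what was forced on. Their genes lie on the minus strand at chr4:156055685-156055706, chr4:156054911-156054932 and chr4:156053916-156053937, in the order printed. Capitals mark the seed.

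miR-200b-3p: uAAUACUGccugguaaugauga

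miR-200a-3p: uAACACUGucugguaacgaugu

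miR-429-3p: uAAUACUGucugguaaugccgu

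The seeds of miR-200b and miR-429 are identical, and that of miR-200a differs from them at 1 base. The array does not measure these microRNAs.

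Background was gauged by the array's own controls: the highest value of any probe set for bacterial trp, 5.28 on the log2 scale, serves as the background gauge. A fold is written "at least" where the dimmer group's mean lies under that gauge, and no fold is given where both means do. Of the 64 genes, 43 had both group means over the gauge, 4 had 1 mean under it and 17 had both under it. Of 7 epithelial markers 5 lay over the gauge on all arrays, among them Krt8 (13.52 and 13.45, control and miR-200 means) and Cdh1 (13.23 and 13.32), whereas the claudins Cldn4 and Cldn7 had control means of 3.52 and 5.71. The lung lineage gene Nkx2-1 read 7.07 and 6.88, and the surfactant gene Sftpc lay under the gauge in both groups. These claudins rose in the miR-200 cells, and the summed linear signal of the list was 46488 to 49507 in the controls and 46219 to 48969 in the miR-200 cells. Of 7 lung epithelial markers 2 fell, Sftpb and Aqp5, and the sum was 10746 to 13378 against 2249 to 2336. Among 7 fibroblast, 6 blood cell and 5 endothelial markers none passed in limma. At an unadjusted p under 0.05 were 0, 1 and 0, against 14.8% of all genes, and 3, 4 and 2 of them lay over the gauge on all arrays. Of the blood cell markers, Ptprc had means of 5.60 and 5.50, Cd68 7.38 and 6.89, and Adgre1 8.80 and 8.84. Csf1r had means of 9.47 and 9.92 with separate groups (limma adjusted p = 0.264). Cd68 was uneven between cultures. Control A, B and C read 6.81, 8.87 and 6.46, and miR-200 A, B and C read 8.98, 5.73 and 5.97. Its group maxima were control B and miR-200 A, a pattern that Ptprc, Adgre1 and Csf1r did not share. The summed linear signals of these 3 lists, control and then miR-200, were 358 to 382 and 373 to 415 for fibroblasts, 1288 to 1636 and 1527 to 2089 for blood cells, and 220.1 to 229 and 247 to 263 for endothelium. The part of these marker differences in the enzyme results was not tested. Array control B and array miR-200 A differed from their group mates in a shared way, with deviations from the group means that correlated at 0.71 over 27022 probe sets. In 33 of the 64 genes, control B and miR-200 A were both the highest of their groups (21 genes) or both the lowest (12), or 51.6%, against 48.2% of all genes.

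**Figure D1:**
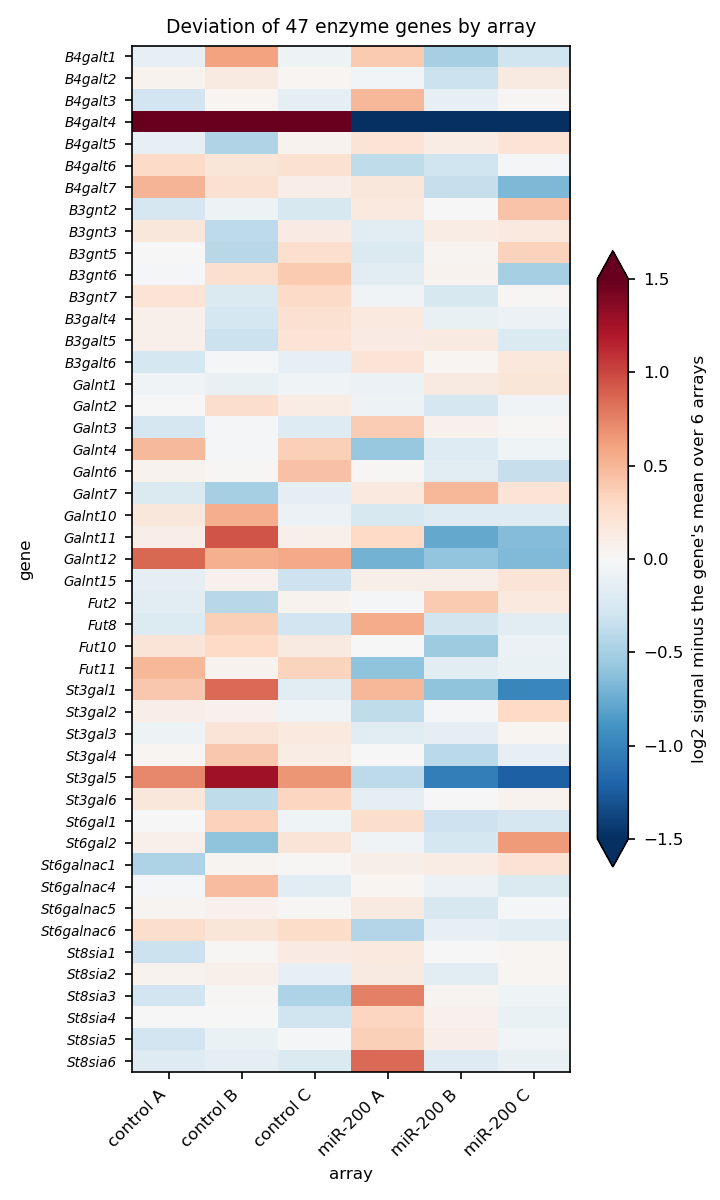
Log2 signal of 47 enzyme genes with at least 1 group mean over the background gauge (rows) on the 6 arrays (columns), as the difference from the gene's mean over the arrays, with the colour scale ending at 1.5 in each direction. B4galt4, Galnt12 and St3gal5 separate the 3 control arrays from the 3 miR-200 arrays, whereas Galnt11, St3gal1 and Fut8 are highest in each group on control B and miR-200 A.

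In the miR-200 cells 2 of these enzyme genes fell and none rose past the threshold. B4galt4, a galactosyltransferase, fell by 5.14 on the log2 scale, and Galnt12, an enzyme of O-glycan initiation, fell by 1.31. The threshold was an adjusted p of 0.05 in limma over all 45037 probe sets, and 0 genes passed higher and 2 lower. Among all genes 0.275% were called higher and 0.671% lower. At an unadjusted p under 0.05 in limma the count was 9 of 64, against 14.8% of all genes. All 3 miR-200 values lay above all 3 control values in 8 genes and below them in 12, where the shares of all genes were 11.4% and 12.1%. The median log2 change was -0.0051, beside 0.0014 over all genes. A gene that did not pass may still differ, within the interval given for it.

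**Figure D2:**
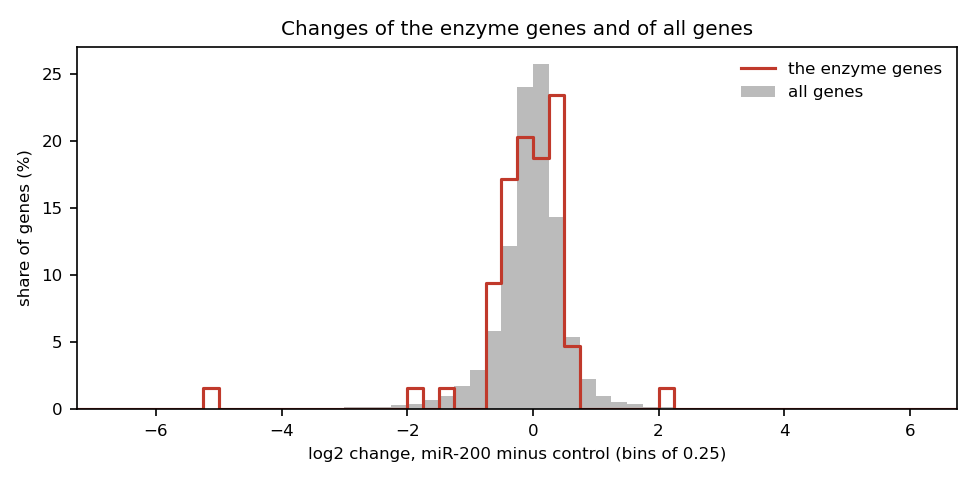
Share of genes (vertical axis, percent) by log2 change, miR-200 minus control, in bins of 0.25 (horizontal axis), for the 64 enzyme genes (red line) and all 18193 genes (grey bars). Both sit around 0, and the single enzyme genes far from it are B4galt4 at -5.14, St3gal5 at -1.77, Galnt12 at -1.31 and Galnt14 at 2.00, the last under the background gauge in both groups.

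**Figure D3:**
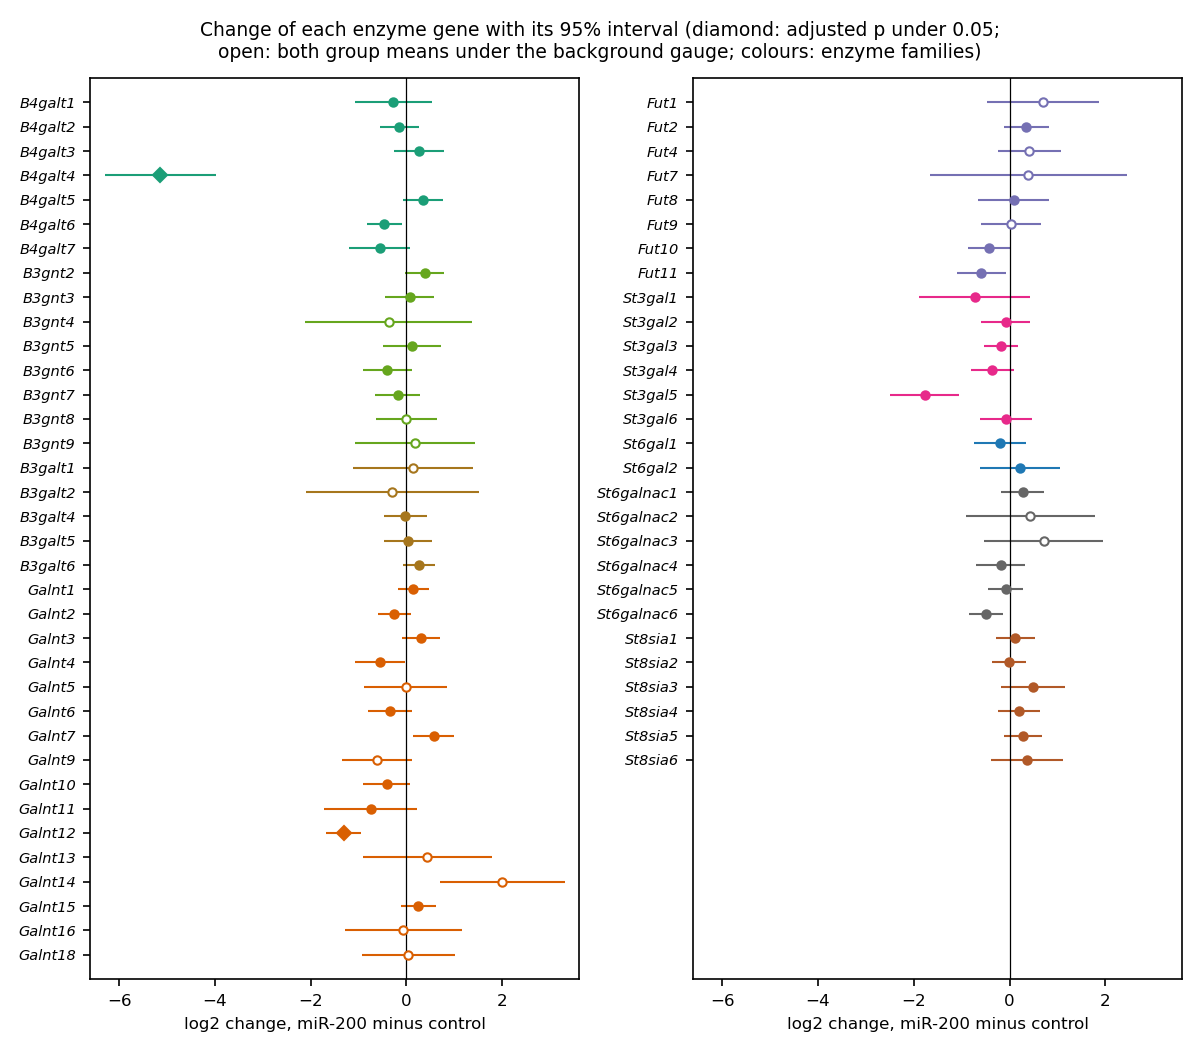
Log2 change, miR-200 minus control, of each of the 64 genes (points) with its 95% interval from the limma fit (bars), grouped by enzyme family. Diamonds mark B4galt4 and Galnt12, which passed the threshold, and open points mark the 17 genes with both group means under the background gauge.

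The B4galt enzymes add galactose to N-acetylglucosamine or glucose, and 1 of their 7 genes fell. B4galt4, which makes lactosamine and prefers sulfated acceptors such as those of keratan sulfate, read 7.15, 7.74 and 6.74 in control A, B and C, and 2.67, 2.34 and 1.19 in miR-200 A, B and C. The groups lay far apart, and every miR-200 value was under the background gauge of 5.28. The group means were 7.21 ± 0.50 and 2.07 ± 0.77 (SD, n = 3), at least 3.81-fold lower (log2 change -5.14 ± 0.47 SE, limma adjusted p = 0.0192, lower in 3 of 3 cultures). Fewer cells with the transcript and less of it per cell cannot be told apart in such bulk RNA. The gene spans chr16:38742220-38769054 (GRCm38.p6) and has 1 probe set, so no other one on the array bears on it. Without control B and miR-200 A the difference was -5.18 and the call was lost (adjusted p = 0.0840). It was also lost without any 1 array other than miR-200 A (0.0374 to 0.12 over the 6 arrays left out in turn).

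The other B4galt genes differed by far less, and none of them passed. B4galt6, a lactosylceramide synthase and the brightest of the family here, read 11.59, 11.48 and 11.52 in the controls and 10.92, 11.00 and 11.28 in the miR-200 cultures. Its groups did not overlap, and all 4 of its probe sets were lower, by -0.46 to -0.71, without passing (adjusted p = 0.262 for the brightest and 0.124 for the largest difference). B4galt5, the other lactosylceramide synthase, pointed the other way, 0.35 ± 0.17 with groups that did not overlap (adjusted p = 0.427). B4galt1, the main Golgi enzyme for N-glycan lactosamine, differed by -0.28, with a 95% interval from -1.08 to 0.52 that spans 0. B4galt2 and B4galt3, which act on similar acceptors, differed by -0.15 and 0.26. B4galt7, which adds the first galactose of the proteoglycan linker, differed by -0.56 ± 0.26 (adjusted p = 0.406). Of the 7 genes, 1 passed in limma, and 2 had an unadjusted p under 0.05, against 14.8% of all genes.

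**Figure D4:**
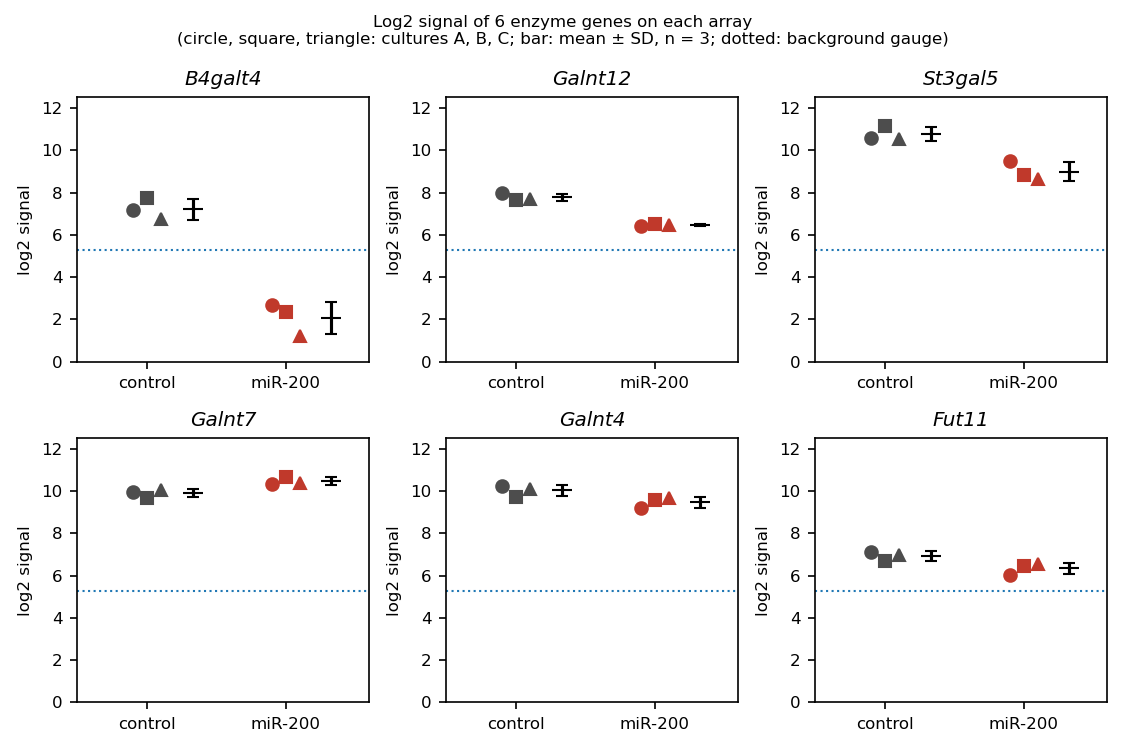
Log2 signal (vertical axis) of B4galt4, Galnt12, St3gal5, Galnt7, Galnt4 and Fut11 in control and miR-200 cells, 1 point per array, with the mean ± SD of n = 3 beside each group and the background gauge of 5.28 as a dotted line. The groups do not overlap in any of the 6 genes, and B4galt4 alone drops under the gauge.

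The B3gnt enzymes add the N-acetylglucosamine that alternates with galactose in lactosamine chains. B3gnt2, the main polylactosamine enzyme and the brightest of the 8, read 9.37, 9.54 and 9.38 in the controls and 9.77, 9.61 and 10.04 in the miR-200 cells. Every miR-200 value was the higher, and its other probe set differed by 0.60, yet neither passed (adjusted p = 0.377 and 0.151). B3gnt3, which extends O-glycan cores, and B3gnt5, which starts lacto-series glycolipids, differed by 0.07 and 0.11. B3gnt7, an enzyme of keratan sulfate chains, differed by -0.19, and B3gnt6, the O-glycan core enzyme of the gut, by -0.40 with its miR-200 mean under the gauge. B3gnt4, B3gnt8 and B3gnt9 were under the gauge in both groups. None of the 8 passed in limma, with 0 at an unadjusted p under 0.05, against 14.8% of all genes, and the median change was 0.03.

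The B3galt genes had no call either. B3galt5, an enzyme of type 1 lactosamine chains and the brightest of the 5, read 8.57, 8.17 and 8.70 in the controls against 8.62, 8.64 and 8.28 in the miR-200 cells, groups that overlap throughout. B3galt6, which acts on the proteoglycan linker, was higher in all 3 miR-200 cultures by a small margin on its brightest probe set, 0.26 ± 0.13 (adjusted p = 0.448), whereas its other 2 probe sets, also over the gauge, differed by -0.19 and -0.13. B3galt4, a ganglioside enzyme, differed by -0.03, and B3galt1 and B3galt2 were under the gauge in both groups. Counts of 0 past the threshold and 0 at an unadjusted p under 0.05 in limma describe all 5, against 14.8% of all genes under 0.05. With so few genes a count of 0 says little.

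Among the 16 Galnt genes 1 fell, and the other differences ran in both directions. Galnt12, whose product prefers peptides that already carry a sugar, read 7.97, 7.64 and 7.68 in the controls and 6.40, 6.52 and 6.44 in the miR-200 cells. The 3 miR-200 values lay close together, well under the lowest control and over the background gauge. The means were 7.77 ± 0.18 and 6.46 ± 0.06 (SD, n = 3), 2.48-fold lower (log2 change -1.31 ± 0.14 SE, limma adjusted p = 0.0350). The gene lies at chr4:47091894-47123058 (GRCm38.p6) and has a single probe set on the array. Without control B and miR-200 A the difference was -1.34 and no longer passed (adjusted p = 0.0983). Leaving out any 1 of the 6 arrays also ended the call (0.0716 to 0.165).

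Galnt7, which also acts on glycopeptides, pointed upwards. It read 9.95, 9.68 and 10.03 in the controls and 10.32, 10.67 and 10.38 in the miR-200 cells, a difference of 0.57 ± 0.17 (adjusted p = 0.242). Its other 2 probe sets had groups just as separate and differed by more, 0.95 (adjusted p = 0.139) and 0.92 (adjusted p = 0.126), so 3 of 3 probe sets were higher and none passed. Galnt4, another enzyme of glycopeptides, read 10.24, 9.74 and 10.11 against 9.19, 9.56 and 9.69. Its groups were separate by a narrow gap, and its difference of -0.55 ± 0.21 did not pass (adjusted p = 0.334). The lowest of each group were control B and miR-200 A.

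Galnt2, which acts on bare peptides, was the brightest of the family. It read 11.40, 11.66 and 11.51 in the controls and 11.32, 11.14 and 11.34 in the miR-200 cells, lower by a small margin in 3 of 3 (-0.26 ± 0.14, adjusted p = 0.475). Its probe sets disagreed in sign, at -0.74 and 0.21 for the other 2. Galnt1 differed by 0.15, and Galnt3, known for protecting the hormone Fgf23 from cleavage, by 0.31 with all 3 probe sets higher. The dimmest of those 3 lay under the gauge in both groups. Galnt10, another enzyme of glycopeptides, differed by -0.42 and Galnt6 by -0.34, each with groups that did not overlap. Galnt15 differed by 0.25 on its brightest probe set and by -0.28 on the other, each with separate groups. Galnt11 varied more between cultures. It read 9.97, 10.82 and 9.95 in the controls and 10.16, 9.10 and 9.22 in the miR-200 cells, with control B and miR-200 A the highest of their groups, and its difference of -0.75 ± 0.39 did not pass (adjusted p = 0.463).

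The remaining Galnt genes were dim. Galnt14 was listed at 0 on control A and control B and at 0.36 on control C, and read 3.11, 1.05 and 2.21 in the miR-200 cells. The groups were separate, but all 6 values are under the background gauge, so no fold is given (limma adjusted p = 0.198). Galnt5, Galnt9, Galnt13, Galnt16 and Galnt18 were also under the gauge in both groups. Of the 16 genes 1 passed in limma and 4 had an unadjusted p under 0.05, against 14.8% of all genes. With groups that did not overlap, 4 were higher and 5 lower, where all genes had 11.4% and 12.1%.

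The sialyltransferases place the negatively charged cap of most glycans. The 20 measured here had 0 genes past the threshold in limma and 2 at an unadjusted p under 0.05, against 14.8% of all genes. The largest difference was in St3gal5, the synthase of GM3, the sialylated lactosylceramide from which the other common gangliosides are made. St3gal5 read 10.60, 11.15 and 10.54 in the controls and 9.48, 8.84 and 8.65 in the miR-200 cells. Every miR-200 value lay more than 1 log2 unit under the lowest control, with control B and miR-200 A the highest of their groups. The means of 10.76 ± 0.34 and 8.99 ± 0.44 (SD, n = 3) were 3.42-fold apart (log2 change -1.77 ± 0.29 SE), and with an adjusted p of 0.0845 in limma it did not pass.

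The second probe set of St3gal5 did pass. It read 10.00, 10.36 and 9.99 in the controls and 8.65, 8.15 and 8.01 in the miR-200 cells, a log2 change of -1.85 ± 0.22 (limma adjusted p = 0.0425). The probe sets read the same RNA and are not separate evidence. The mean of the pair, a change of -1.81, passed as well (limma adjusted p = 0.0414 over genes). The brightest probe set passed with a term for control B and miR-200 A (adjusted p = 0.0184) and with array weights (0.0213). It also passed with a variance trend and robust variance estimation (0.0186), and without the dimmest 40% of probe sets (0.0266). These are the 5 of 16 alternatives in which St3gal5 passed. With 1 array left out it passed in 0 of 6 (0.0663 to 0.284), and without control B and miR-200 A the limma adjusted p was 0.0644. Whether St3gal5 is called therefore depends on the setting, whereas its difference lay between -2.02 and -1.58 in the 16 alternatives. In several of these, such as the variance trend and the term for control B and miR-200 A, the difference cannot move. The gene lies at chr6:72097552-72154571 (GRCm38.p6).

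**Figure D5:**
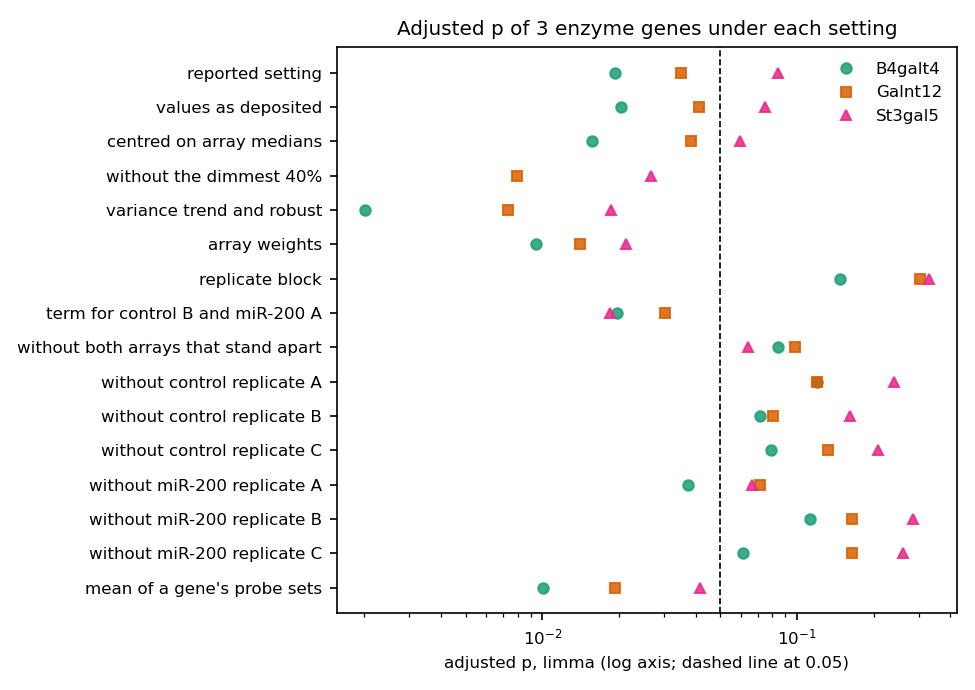
Adjusted p from limma (horizontal log axis, dashed line at 0.05) of B4galt4, Galnt12 and St3gal5 in the reported setting and under alternatives (rows). B4galt4 and Galnt12 sit left of the line in the reported setting. Both pass to its right with the replicate block and without both arrays that stand apart. With 1 array left out, B4galt4 stays left in 1 of 6 settings and Galnt12 in 0. St3gal5 crosses to the left in 5 alternatives, none of them with arrays left out. B4galt4 was not measured without the dimmest 40%.

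On their brightest probe sets the other St3gal genes had differences below 0, none of them past the threshold. St3gal6, an enzyme of lactosamine and selectin ligands and the brightest of the 6, read 11.00, 10.45 and 11.16 in the controls and 10.69, 10.83 and 10.89 in the miR-200 cells. Its groups overlapped, and the difference was -0.07 with a 95% interval from -0.61 to 0.48. St3gal4, which acts on similar chains, was lower in all 3 miR-200 cultures by a mean of 0.36 (-0.36 ± 0.18, adjusted p = 0.437). St3gal1, which caps O-glycans, differed by -0.73 ± 0.46 with overlapping groups (adjusted p = 0.550), and St3gal2, which shares its acceptors, by -0.08, with its other 2 probe sets at 0.62 and 0.17. St3gal3, a further lactosamine enzyme, differed by -0.17. The median change of the 6 genes was -0.27.

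St6gal1, which caps N-glycans and is often raised in carcinomas, read 11.03, 11.37 and 10.96 in the controls against 11.28, 10.71 and 10.77. The groups overlapped, with miR-200 A beside the controls, and the difference was -0.20 with a 95% interval from -0.74 to 0.34 (adjusted p = 0.734). St6gal2, its dim paralogue, differed by 0.22. St6galnac1, which makes the sialyl-Tn tumour antigen, read 8.29, 8.78 and 8.76 in the controls and 8.83, 8.85 and 8.97 in the miR-200 cells. Its groups were separate, but only by a small gap, since control B and C, at 8.78 and 8.76, came close to miR-200 A (0.27 ± 0.18, adjusted p = 0.561).

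St6galnac6, which adds sialic acid within glycolipids, read 8.63, 8.56 and 8.65 in the controls and 7.93, 8.24 and 8.21 in the miR-200 cells. The control values were tight and every miR-200 value lay below them, for a difference of -0.49 ± 0.14 that did not pass (adjusted p = 0.234). St6galnac4 and St6galnac5 differed by -0.18 and -0.08, and St6galnac2 and St6galnac3 were under the gauge in both groups.

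The St8sia enzymes link sialic acid to sialic acid. St8sia5, a ganglioside enzyme and the brightest of the 6, read 7.86, 8.04 and 8.11 in the controls and 8.50, 8.24 and 8.10 in the miR-200 cells, with miR-200 C inside the control range (0.28 ± 0.16, adjusted p = 0.509). St8sia1, the GD3 synthase that acts on the product of St3gal5, differed by 0.12 with a 95% interval from -0.29 to 0.52. St8sia2 and St8sia4, the polysialic acid synthases, differed by -0.01 and 0.20. The other probe set of St8sia2 was lower with separate groups (-0.57, limma adjusted p = 0.329), its miR-200 mean under the gauge. That of St8sia4 differed by -0.25. St8sia3 and St8sia6 differed by 0.49 and 0.36, with the control mean of St8sia3 (4.98) under the gauge. In these miR-200 A was the high array, at 5.97 and 7.0. The other miR-200 cultures read 5.26 and 5.16 in St8sia3, and 5.96 and 6.05 in St8sia6. The dimmer probe set of St8sia3, under the gauge in both groups, differed by -0.83. On their brightest probe sets none of the 6 passed in limma and 0 had an unadjusted p under 0.05, against 14.8% of all genes.

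The fucosyltransferases showed no call in limma, with 1 of 8 at an unadjusted p under 0.05, against 14.8% of all genes. That one was Fut11, at chr14:20694968-20700197 (GRCm38.p6), which read 7.13, 6.68 and 6.97 in the controls and 6.03, 6.46 and 6.53 in the miR-200 cells. Its groups were separate, with control B and miR-200 A the lowest of each, and 3 of 3 probe sets were lower (-0.59 ± 0.20 for the brightest, adjusted p = 0.296), the other 2 with both means under the gauge. Fut10, its closest relative, had the same direction in 3 of 3 probe sets (-0.42 ± 0.18, adjusted p = 0.388). Fut8, which adds the core fucose of N-glycans and is the brightest of the family, read 9.06, 9.62 and 8.98 against 9.82, 8.99 and 9.11, groups that overlap fully around a difference of 0.09. Fut2, which makes the H antigen of secretory epithelia, differed by 0.35 ± 0.19 (adjusted p = 0.479). Fut1, Fut4, Fut7 and Fut9, among them the makers of Lewis x and sialyl-Lewis x, were under the gauge in both groups, with Fut1 listed at 0 on 3 arrays and Fut7 on 3.

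Many of the genes have more than 1 probe set, 43 of 64, and in 27 of those all probe sets differed in 1 direction. No such share over all genes is given here to set beside it. The count also includes genes such as B3galt2 and St6galnac3, whose probe sets all lay under the gauge in both groups. It is therefore not read as agreement between probe sets. In B4galt2, where they disagreed, the brighter differed by -0.15 and the dimmer, with a control mean of 4.83 under the gauge, by 0.73.

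Promoter sequences are printed for B4galt4 and St3gal5, the genes over the background gauge in at least 1 group with the largest differences among those whose promoters the RefSeq table (GRCm38.p6) holds; 46 of the 64 genes matched, with 61 promoters in all. Each is 300 bases long and spans the annotated start, on the plus strand, at chr16:38742009-38742308 and chr6:72097358-72097657. Capitals mark CCAAT and GGGCGG on either strand, the core letters of the CCAAT box and the GC box, and the marked stretches do not overlap.

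B4galt4: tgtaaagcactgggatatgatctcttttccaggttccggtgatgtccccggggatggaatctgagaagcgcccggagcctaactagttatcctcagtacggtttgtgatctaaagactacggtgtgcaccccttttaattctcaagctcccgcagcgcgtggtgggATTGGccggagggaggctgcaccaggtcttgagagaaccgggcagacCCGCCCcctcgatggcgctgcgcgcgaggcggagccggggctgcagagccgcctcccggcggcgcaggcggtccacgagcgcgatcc

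St3gal5: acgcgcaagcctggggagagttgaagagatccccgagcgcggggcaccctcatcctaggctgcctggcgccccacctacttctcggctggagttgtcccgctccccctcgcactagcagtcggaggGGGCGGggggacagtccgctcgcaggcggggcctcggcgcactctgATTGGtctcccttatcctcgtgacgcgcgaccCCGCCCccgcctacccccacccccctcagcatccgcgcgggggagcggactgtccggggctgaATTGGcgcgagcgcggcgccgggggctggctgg

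Both are rich in G and C, 62.7% and 72.7%, and both hold the CCAAT letters, 1 time and 2 times, and the GGGCGG letters, 1 time and 2 times. Of all 32851 promoters given there, 37.4% hold CCAAT and 35.7% hold GGGCGG, and of the 61 of these enzymes 29.5% and 59.0%. CACCTG, the E-box letters known from Zeb binding, occurs in neither window, in 10 of the 61 (16.4%) and in 20.2% of all. Such matches describe the letters only, and binding was not measured.

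The rest of the glycan machinery was followed in 6 lists. Among 26 other glycosyltransferases of the same glycans, 1 fell. B3galnt1, which makes globoside from globotriaosylceramide, read 6.91, 7.17 and 6.21 in the controls and 3.82, 2.81 and 3.62 in the miR-200 cells. All 3 miR-200 values lay under the gauge, so the drop is at least 2.80-fold (log2 change -3.35 ± 0.37 SE, limma adjusted p = 0.0360), on a single probe set. Leaving out any 1 of the 6 arrays ended this call (0.0616 to 0.166). A4galt, which makes the acceptor of B3galnt1, was listed at 0 on all 6 arrays. The list had a median change of 0.03, with 4 of 26 at an unadjusted p under 0.05 in limma, against 14.8% of all genes. Its largest rise was in Pofut1, 1.19 ± 0.35 on its brightest probe set with separate groups (limma adjusted p = 0.236). Ugcg, which makes glucosylceramide, the base of these lipids, read 11.08 on miR-200 A and between 9.65 and 9.76 on the other 5 arrays.

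Among 11 glycan sulfotransferases 1 rose. Chst1, which sulfates the galactose of keratan sulfate, read 6.09, 6.72 and 6.04 in the controls and 9.77, 9.25 and 9.07 in the miR-200 cells. The groups were more than 2 log2 units apart, and the means of 6.28 and 9.37 were 8.48-fold apart (log2 change 3.08 ± 0.28 SE, limma adjusted p = 0.0192), again on a single probe set. With 1 array left out it passed without control B or miR-200 A (0.0414 and 0.0403), and not without control A, control C, miR-200 B or miR-200 C (0.0933 to 0.118). Gal3st2, which sulfates galactose as well, differed by 0.25 with separate groups (adjusted p = 0.430). The list's median change was -0.02, and Chst1 was its only gene at an unadjusted p under 0.05 in limma, where all genes had 14.8%.

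The supply of activated sugars had no gene past the threshold in limma. At an unadjusted p under 0.05 were 3 of 19 synthesis genes and 3 of 10 Golgi transporters, against 14.8% of all genes. Of the 19 synthesis genes 17 had differences below 0, with a median of -0.13. Over all 18193 genes 9008 did, with a median of 0.0014, and the lists were not tested as sets. Cmas, which activates sialic acid, had tight groups. It read 11.93, 11.97 and 11.97 in the controls and 11.43, 11.36 and 11.40 in the miR-200 cells (-0.56 ± 0.11, adjusted p = 0.120). Galt, an enzyme of galactose use, differed by -0.79 ± 0.18 (adjusted p = 0.149). Of the transporters 8 of 10 had differences below 0, with a median of -0.25, among them the CMP-sialic acid carrier Slc35a1 (-0.33, adjusted p = 0.343), the N-acetylglucosamine carrier Slc35a3 (-0.34, adjusted p = 0.352) and Slc35d2 (-0.55, adjusted p = 0.296).

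The enzymes that remove terminal sugars had 0 genes past the threshold as well, with 3 of 9 at an unadjusted p under 0.05 in limma. The galectins that bind such sugars were listed together with Lgals3bp, which is not a galectin. That list also had 0 past the threshold and 3 of 9 under 0.05, Lgals3bp among the 3. The share of all genes under 0.05 was 14.8%. The medians of these lists were -0.46 and -0.30, beside 0.0014 over all genes. Neu2, a cytosolic sialidase, had means of 6.70 in the controls and 5.68 in the miR-200 cells (-1.03 ± 0.16, adjusted p = 0.0696), and Glb1, the lysosomal beta-galactosidase, differed by -0.46 (adjusted p = 0.248). Lgals3bp, a secreted glycoprotein that galectin-3 binds, read 11.06, 11.04 and 10.93 in the controls and 9.35, 8.21 and 8.42 in the miR-200 cells. The groups were 5.10-fold apart and the adjusted p was 0.0539, which did not pass. Lgals4, a galectin of the gut, differed by -0.69 with separate groups (adjusted p = 0.196).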

How the data were processed

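Biotin-labelled cRNA from 6 cultures was hybridized to Affymetrix mouse arrays, per the labels' protocols. The authors deposited log2 signals, 1 per probe set and array; the method of summary and normalization, not given in the sources used here, is unknown. The log2 scale follows from the values. The labels name the 430A 2.0 array, whereas the table holds 45101 probe sets and the annotation is that of the larger design.

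The arrays were quantile normalized, the 64 control probe sets were left out, and miR-200 minus control was fitted with limma 3.58.1 (lmFit, eBayes, two-sided) in R 4.3.3, with Benjamini-Hochberg adjustment over 45037 probe sets and a threshold of 0.05. Of 34945 probe sets with 1 symbol, 34741 were matched by gene number to RefSeq. The fit was tested on simulated data. The number of arrays, 3 per group, limits the precision.

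The genes, the lists and the background gauge were chosen with earlier results of these data known. Every enzyme gene is named. Array values are given for those past the threshold, those with separate groups, a log2 change of at least 0.5 and a brighter mean over the gauge, and the brightest of each family; others with array values, among them Galnt11, Galnt14, St6galnac6, St8sia3, St8sia6 and Ugcg, were chosen after their values were seen. Of the lists, members past the threshold are named, otherwise up to 2 of the largest separate differences. A4galt, Ugcg, Pofut1, Slc35a1 and Gal3st2 were added after their values were seen. Alternatives covered scaling, a filter on the dimmest 40%, each gene's mean over probe sets, array weights and the replicate block. They also covered arrays left out, a term for control B and miR-200 A, and the symbol source. Another was the variance trend, always fitted together with robust variance estimation.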

Additional observations from a re-analysis of the deposited data

How the results depend on the processing

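The 2 calls, B4galt4 and Galnt12, were both kept on the values as deposited and when centred on array medians. Array weights, the variance trend and the term for control B and miR-200 A also kept both. The mean of probe sets and annotation symbols as given kept them too, but say little about these calls. Each of the 2 genes has 1 probe set, so averaging leaves its values unchanged, and the symbols as given repeat the same fit. St3gal5 passed besides, 3 calls, with the trend, the weights, the term and the mean of probe sets. There the share of all genes called went from 0.945% to 2.72%, 3.33%, 2.64% and 1.47%. Without the dimmest 40%, B4galt4 was not measured and Galnt12 and St3gal5 passed, 2 of 43 genes, beside 3.72% of all genes. With both arrays that stand apart left out, 0 of 64 passed in limma (13 at an unadjusted p under 0.05), beside 0.319% of all genes. Leaving out 1 array gave between 0 and 1 calls; B4galt4 passed without miR-200 A (adjusted p = 0.0374, beside 1.02% of all genes), and 0 of the 64 passed without control A, control B, control C, miR-200 B or miR-200 C, where 6 to 11 had an unadjusted p under 0.05 and 0.0879% to 0.473% of all genes passed. The changes then ranged from -5.44 to -4.70 for B4galt4 and from -1.37 to -1.21 for Galnt12. The alternatives with arrays left out rest on fewer samples by construction.

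A replicate block by letter gave 0 of 64 genes past the threshold in limma (5 at an unadjusted p under 0.05), and 0 of all 18193. This block cannot move the log2 changes, because each letter holds an array of each group. They were thus again -5.14, -1.31, -3.35 and 3.08 for B4galt4, Galnt12, B3galnt1 and Chst1, with limma adjusted p of 0.148, 0.303, 0.273 and 0.214. The alternatives for the last pair were chosen after seeing the data. Without both arrays that stand apart, Chst1 passed (adjusted p = 0.0480) and B3galnt1 did not (0.109). The cause was not tested. Same-letter arrays had deviations that correlated at -0.58, -0.67 and 0.43, so the letters are not taken as pairs. The median change ranged from -0.0778 to 0.0497. Of 1003 values of the 64 genes under alternatives, 76 changed sign, and in 0 of these was the gene past the threshold either way. The 1003 values include settings that leave the estimates themselves unchanged, where no sign could change. They are the variance trend, the replicate block, the term for control B and miR-200 A, the dimmest 40% filter and the symbols as given. Signal over background limits the 17 genes with both means under the gauge and the 4 with 1.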
